A study of Sus scrofa domesticus with 150 samples.

Results

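The melanocyte genes PMEL, TYRP1, DCT, MLANA, TYR, MITF and KIT were followed through 150 samples of porcine skin and wound tissue. A row of the count table was taken as a member when it carried one of these 7 symbols, either as its gene name or, for rows without a name, as the gene of the protein it was matched to. This gave 8 rows of 30461, since KIT matched a long row and a short one. No measured value entered the choice. The samples came from 6 domestic pigs, all females of a mixed Yorkshire breed, which carried round full-thickness excision wounds on both sides of the back under Telfa Clear and Tegaderm dressings. Day 0 is the skin cut out to make the wounds, with 1 sample for each animal, and 72 wounds gave 1 biopsy of the edge and 1 of the center on 14 days between day 1 and day 21. A topical antibiotic ointment was put on biopsied sites, a sampled wound left the experiment, and no other treatment or genetic change separates the groups. Age and coat color are not given in the sources used here. Animals 1323, 1324 and 1325 were sampled on days 1, 3, 5, 7, 11, 15 and 21, and animals 1326, 1327 and 1328 on days 2, 4, 6, 9, 13, 16 and 19, so on any single day the day and the trio of animals cannot be told apart. Each animal was sampled in each of 4 windows of days (1 to 4, 5 to 9, 11 to 13 and 15 to 21), and the tests below compare counts summed for each animal, location and window.

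Melanocytes are the pigment cells of skin and hair. They arise from the neural crest, depend on the receptor tyrosine kinase KIT and its ligand while they migrate and survive, and switch on pigment genes through the transcription factor MITF. The pigment enzymes TYR, TYRP1 and DCT make melanin in the melanosome, an organelle that PMEL fibrils shape, and MLANA is a small melanosomal protein that is widely used as a melanocyte marker. In skin, melanocytes sit in the basal epidermis and in the hair bulb. KIT is also carried by mast cells, and MITF is also active in mast cells, osteoclasts and macrophages.

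The total count of a sample ran from 13133379 to 24895572, with a median of 17643938.5, and levels are given as CPM, counts scaled to the same total in every sample. Earlier results of these data set 7 libraries apart from their replicates: the centers of wound L on day 2 (animal 1326), G on day 3 (1324), B on day 6 (1328), E on day 9 (1328) and C on day 11 (1323), and the edges of wound G on day 3 and K on day 5 (1325). Leaving them out ended 1 call on a member, that of MLANA at the edge late against early, which is given with its values. In whole tissue, fewer cells of a type and less RNA per cell cannot be told apart.

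The markers that define a pigment cell were at or near the floor of these libraries. TYR, the rate-limiting enzyme of melanin synthesis, had 0 counts in all 150 samples, which together hold 2662199387 counts, and this allows a level of up to 0.00113 CPM. The TYR row, of 1252 bases, was named by a protein match, as were those of PMEL, DCT and KIT. Whether it holds the whole gene was not tested, so the 0 counts speak of that row. TYRP1 had 54 counts in 26 samples, with at most 6 in any one. DCT had 853 counts in 137 samples and PMEL had 1308 counts in 146 samples. The row of the defining enzyme TYR was thus without counts and that of TYRP1 nearly so, and the members are described gene by gene rather than as a cell type. MLANA had 3465 counts in 116 samples, KIT had 55726 and MITF had 73941, the last 2 in every sample. The second KIT row, a predicted gene of 983 bases on another contig, held 10 counts in all.

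Per length, on the deposited FPKM scale, KIT and MITF stood close together, with medians of 4.84 and 4.80 FPKM over the 150 samples. MLANA had a median of 0.653 FPKM and a highest value of 32.0 FPKM, the highest that any member reached. The medians of PMEL and DCT were 0.197 and 0.113 FPKM. TYRP1 and TYR had medians of 0 FPKM. The file places the genes on contigs of an assembly that is not named in the sources used here. MLANA (ENSSSCG00025017284) is at 203812 to 216502 on the minus strand of LUXX01006222.1, KIT (ENSSSCG00025046140) at 28172 to 77158 on the plus strand of LUXX01079071.1, and MITF (ENSSSCG00025006552) at 1285858 to 1529776 on the minus strand of LUXX01012913.1. DCT (ENSSSCG00025036791) is at 895475 to 968793 on the plus strand of LUXX01054077.1. PMEL (ENSSSCG00025041910), at 314872 to 324419 on the minus strand of LUXX01053455.1, shares 689 bases with CDK2 on the other strand. Whether the counting used strand is not stated, so reads of PMEL and CDK2 cannot be told apart in that stretch. CDK2 averaged 460 counts a sample against 8.72 for PMEL, and Pearson's r between both over the 150 samples was -0.11.

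MLANA was not detected in day 0 skin and appeared in the wound center. It had 0 counts in all 6 day 0 samples, which hold 109493039 counts, and this allows up to 0.0274 CPM. In the center it stayed at or below 0.278 CPM in every sample of days 1 to 3. On day 4 the lowest, median and highest of 6 center samples were 0, 0.437 and 1.22 CPM, with 2 samples at 0. On day 5 they were 0.213, 0.605 and 1.07 CPM. All 6 had MLANA counts, as did every center sample from then to day 19. The corresponding values were 1.05, 3.39 and 5.57 CPM on day 7 and 1.51, 3.97 and 10.4 CPM on day 9. They reached 2.79, 4.32 and 15.4 CPM on day 11 and 3.57, 6.11 and 15.9 CPM on day 13, the day with the highest mean of the 29 day and location states. The level then fell back. The 3 center samples of day 15 had 0.979, 2.35 and 9.76 CPM, those of day 16 had 2.16, 2.24 and 5.43 CPM, those of day 19 had 0.794, 2.06 and 2.24 CPM, and those of day 21 had 0, 0.223 and 0.405 CPM. The rise and the fall were thus seen in each trio of animals on its own days, from a mean of 0.124 CPM on day 1 to 6.43 on day 11 and 0.209 on day 21 in one, and from 0.0725 CPM on day 2 to 7.54 on day 13 and 1.70 on day 19 in the other. Neighbors in the order of the 29 states were close: in 27 of 28 neighboring pairs the gap of the means on the log2(1 + CPM) scale was smaller than the larger of both SDs.

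**Figure D1:**
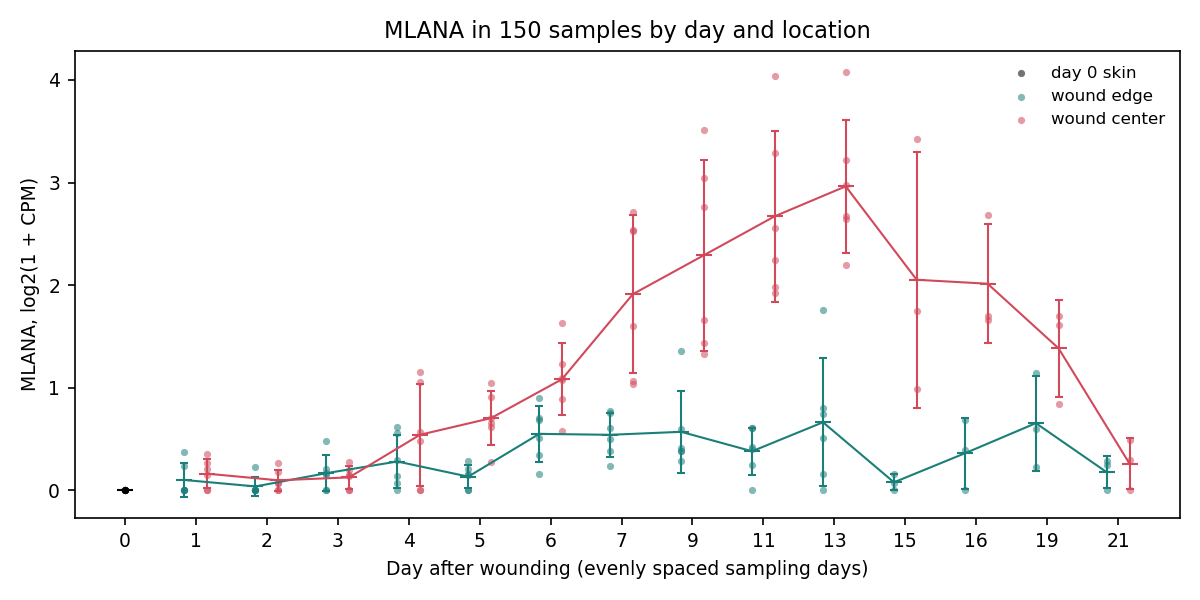
MLANA as log2(1 + CPM) (y axis) in each of the 150 samples by sampling day (x axis, evenly spaced), for day 0 skin, wound edge and wound center. Lines join the means and bars show the SD; the center climbs to a mean of 2.96 on day 13 and falls to 0.26 on day 21, while every edge mean stays at or below 0.66.

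At the edge MLANA rose far less. Edge samples ran from 0 to 2.39 CPM with a median of 0.187, and 19 of 72 had no count, against a range of 0 to 15.9 CPM, a median of 1.07 and 9 without a count in the center. On days 11 to 13 the 6 animals had 0.174 to 1.21 CPM at the edge (median 0.397) and 3.38 to 12.4 CPM in the center (median 5.28), and the locations did not overlap. The center was the higher one in 58 of 72 wounds, in 12 of 24 on days 1 to 4, 23 of 24 on days 5 to 9, 12 of 12 on days 11 to 13 and 11 of 12 on days 15 to 21. It was higher in 6 of 6 animals over all days.

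Edge and center were compared over all days with edgeR's quasi-likelihood test on sums per animal, with p-values adjusted by Benjamini-Hochberg over all genes tested. MLANA was 7.42-fold higher in the center, a log2 difference of edge minus center of -2.89 (SE 0.32, adjusted p = 0.000166 by edgeR, n = 6 animals). KIT was also higher in the center, with a log2 difference of -0.58 (SE 0.05, adjusted p = 3.92e-05 by edgeR). For the other 3 members tested no difference was called, and the 95% intervals of edge minus center on the log2 scale were -0.10 to 0.17 for MITF, -0.23 to 0.50 for PMEL and -0.33 to 0.38 for DCT. So 2 of 5 members tested were called, where 60.4% of all 20725 genes tested were. TYRP1, TYR and the short KIT row had too few counts to be tested, and MLANA passed the filter on low counts through the wound samples alone.

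By window, 1 of 5 members was called between edge and center on days 1 to 4 (48.1% of all genes tested), 2 on days 5 to 9 (44.4%), 4 on days 11 to 13 (50.7%) and 1 on days 15 to 21 (34.6%). All these calls were higher in the center. KIT was called on days 1 to 4 (-0.85, SE 0.12), 5 to 9 (-0.48, SE 0.12) and 11 to 13 (-0.74, SE 0.12) but not on days 15 to 21 (-0.27, SE 0.12, adjusted p = 0.070 by edgeR), where it was called without animal 1324 (-0.36) or without animal 1325 (-0.34). Without the animal as a block the call of KIT on days 5 to 9 was lost (-0.45, adjusted p = 0.10 by edgeR). MLANA was called from days 5 to 9 on, at -2.56 (SE 0.50), -3.74 (SE 0.53) and -3.08 (SE 0.54), and on days 1 to 4 its difference of -0.70 (SE 0.57) was not. MITF differed in one window, days 11 to 13, when it was 1.52-fold higher in the center (-0.61, SE 0.15, adjusted p = 0.000989 by edgeR) and higher there in 10 of 12 wounds. DCT was also called on days 11 to 13, 2.26-fold higher in the center (-1.18, SE 0.43, adjusted p = 0.021 by edgeR), on 24 counts at the edge and 52 in the center. That DCT call was lost when animal 1323, 1325 or 1326 was left out (adjusted p = 0.060, 0.054 and 0.20 by edgeR), and the log2 difference was -0.67 without animal 1326. It was also lost with each library as a replicate (-1.06, adjusted p = 0.087 by edgeR). PMEL was called in none of the 4 windows, and without animal 1328 its difference on days 11 to 13, 0.45, became 0.90 and was called, higher at the edge (adjusted p = 0.0243 by edgeR), and without animal 1323 it became 0.096 (adjusted p = 0.84 by edgeR), the range over its alternatives.

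Day 0 skin of the same animals gives the level before wounding. Against it, KIT, MITF, PMEL and DCT were called in the center in each of the 4 windows, where 73%, 74.8%, 70.1% and 65% of the 18087 genes tested were called. At the edge MITF, PMEL and DCT were called in each window and KIT from days 5 to 9 on, where the shares of all genes were 56.7%, 61.3%, 54.2% and 46.5%. MITF, PMEL and DCT were lower than on day 0 in every one of these comparisons, and KIT was higher wherever called. MLANA is not counted here, since with 0 counts on day 0 it entered the test through the wound samples alone. The edge and center comparisons share their day 0 samples, so they are not independent of each other.

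The change of MLANA is given as a bound, with 3 counts over the 6 day 0 samples as the floor. The center was at least 7.65-fold higher on days 1 to 4, at least 90.3-fold on days 5 to 9, at least 251-fold on days 11 to 13 and at least 87.7-fold on days 15 to 21. For the edge the bounds were at least 4.12-fold, 14.7-fold, 18.3-fold and 10.7-fold in the same order. Of the 94 center counts on days 1 to 4, 45 came from animal 1326, and without it that bound was at least 4.81-fold, an alternative added after the values were seen. The highest edge bound thus lay below the bounds of the last 3 center windows.

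KIT, the receptor for stem cell factor, was higher in wounds than in day 0 skin and higher in the center than at the edge. On day 0 its lowest, median and highest levels were 7.08, 12.9 and 15.1 CPM. In the center the 6 animals had 16.6 to 31.7 CPM on days 1 to 4 (median 25.2), 21.2 to 34.3 on days 5 to 9 (median 25.2), 20.3 to 43.9 on days 11 to 13 (median 28.2) and 13.2 to 26.0 on days 15 to 21 (median 19.2). Only in the last window did the center overlap day 0. At the edge they had 7.81 to 17.7 CPM (median 14.6), 14.2 to 28.3 (median 18.6), 12.7 to 23.8 (median 17.3) and 10.9 to 23.2 (median 16.2), which overlapped day 0 in each window. Of single samples, 64 of 72 in the center and 40 of 72 at the edge lay above the highest day 0 value.

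The fold changes of KIT against day 0 in the center were 0.97 (SE 0.12), 1.22 (SE 0.12), 1.49 (SE 0.12) and 0.97 (SE 0.12) on the log2 scale in the 4 windows, the third being 2.80-fold. At the edge KIT was not called on days 1 to 4, at 0.12 (SE 0.12, adjusted p = 0.40 by edgeR), and the 95% interval of that difference ran from -0.11 to 0.36. It was 0.74, 0.75 and 0.70 higher afterwards, each with an SE of 0.12. On day 1 the edge mean of 8.48 CPM (SD 4.74) was the lowest of all 29 states and the center mean of 27.9 CPM (SD 7.50) was above the day 0 mean. On day 21 the order was turned, with 12.8 CPM (SD 0.824) in the center and 17.2 CPM (SD 7.52) at the edge, a gap smaller than the SD at the edge. The center was the higher location in 62 of 72 wounds and in 6 of 6 animals.

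**Figure D2:**
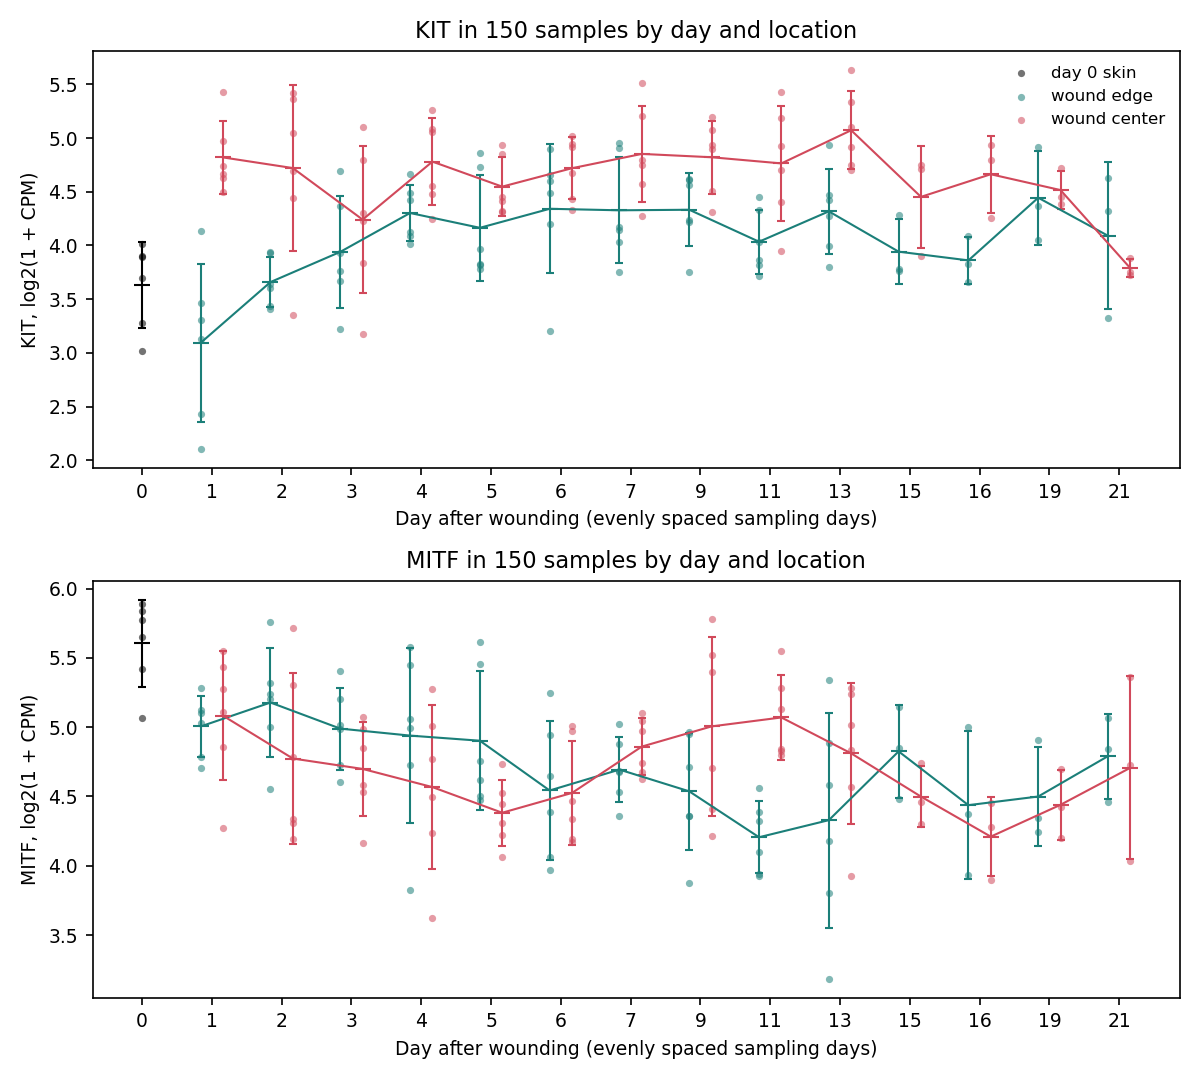
KIT (top) and MITF (bottom) as log2(1 + CPM) in each of the 150 samples by sampling day, with means joined by lines and SD bars, for day 0 skin, edge and center. The y axes do not start at 0; the center mean of KIT lies above the day 0 mean on every day and MITF has its highest mean, 5.61, on day 0.

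MITF, the transcription factor of the melanocyte lineage, was highest before wounding. Day 0 samples had 32.5, 51.4 and 58.4 CPM as lowest, median and highest, and no wound sample exceeded the highest of these. Of the wound samples, 55 of 72 at the edge and 54 of 72 in the center lay below the lowest day 0 value. In the center the 6 animals had 20.6 to 33.3 CPM on days 1 to 4 (median 28.4), 19.1 to 37.2 on days 5 to 9 (median 24.5), 23.0 to 40.5 on days 11 to 13 (median 30.7) and 15.6 to 29.9 on days 15 to 21 (median 21.1). Edge values were 27.9 to 36.5 CPM (median 33.4), 21.4 to 32.1 (median 24.1), 15.2 to 26.2 (median 18.7) and 17.1 to 30.9 (median 25.6). The edge thus reached its lowest median on days 11 to 13, the window in which the center had its highest. Against day 0, MITF in the center fell by 0.91, 0.84, 0.55 and 0.98 log2 units, each SE being 0.15, and at the edge it fell by 0.62, 0.92, 1.16 and 0.82 log2 units (SE 0.15 to 0.16). Reads were counted per gene, so the melanocyte transcript of MITF and the transcripts used in other cells cannot be told apart.

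PMEL and DCT, which form the melanosome matrix and act as a pigment enzyme (dopachrome tautomerase), were also highest on day 0. PMEL had 15 to 27 counts in a day 0 sample, or 0.856, 1.30 and 1.53 CPM as lowest, median and highest. In the center the animals had 0.362 to 0.838 CPM on days 1 to 4, 0.113 to 0.423 on days 5 to 9, 0.151 to 0.760 on days 11 to 13 and 0.338 to 0.572 on days 15 to 21. None of these sums reached the lowest day 0 value, and at the edge 1 animal did, with 0.884 CPM on days 11 to 13. In the fits PMEL was 2.25-fold, 3.49-fold, 3.06-fold and 2.43-fold lower in the center and 2.52-fold, 2.39-fold, 2.23-fold and 2.94-fold lower at the edge than on day 0, with an SE of 0.30 to 0.32 log2 units and adjusted p from 1.3e-06 to 0.0015 by edgeR.

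DCT had 10 to 24 counts in a day 0 sample, or 0.526, 0.966 and 1.15 CPM as lowest, median and highest. Center values were 0.234 to 0.678 CPM on days 1 to 4, 0.158 to 0.397 on days 5 to 9, 0.0630 to 0.365 on days 11 to 13 and 0.151 to 0.307 on days 15 to 21. Only the first of these windows overlapped day 0. At the edge DCT was lowest on days 11 to 13, at 0 to 0.232 CPM, when it was 7.71-fold lower than on day 0 (log2 difference -2.95, SE 0.42, adjusted p = 1.5e-07 by edgeR). In the other 3 edge windows it was 2.69-fold to 2.92-fold lower. With a few reads in a sample, a difference smaller than the intervals of these fits was not detectable at this depth. In 27 of 28 neighboring pairs of the 29 states the gap of the means was smaller than the larger SD, for PMEL, DCT and MITF alike.

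**Figure D3:**
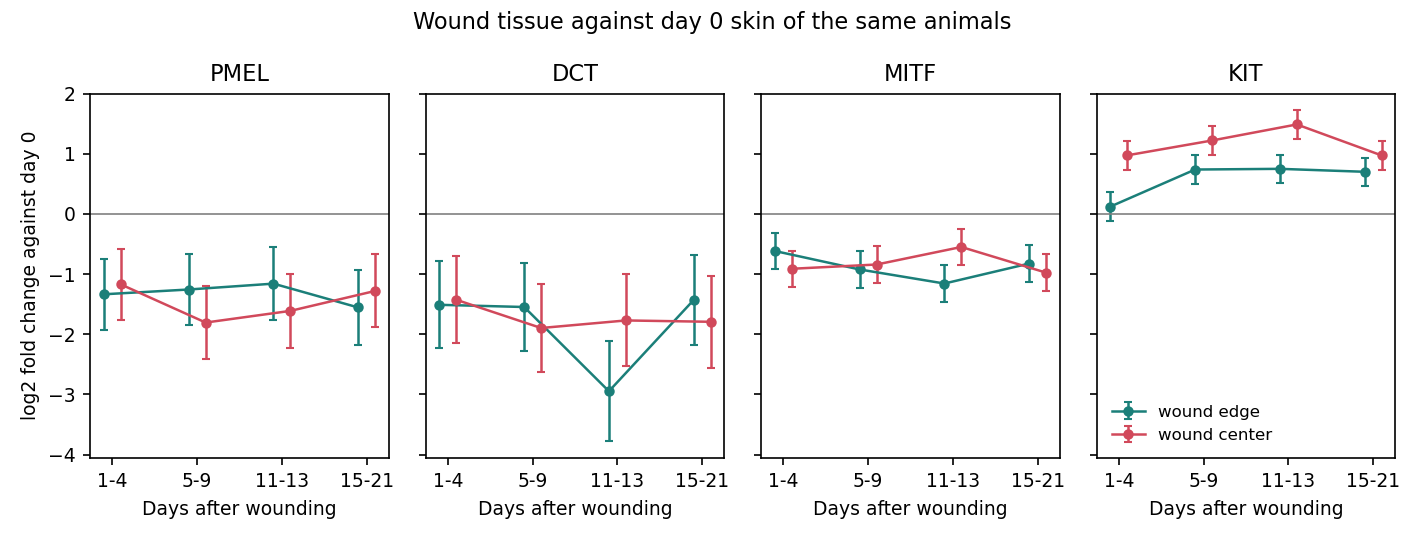
Log2 fold change against day 0 (y axis) in 4 windows of days (x axis) for PMEL, DCT, MITF and KIT at the wound edge and center; points are edgeR estimates over 6 animals and bars their 95% intervals. PMEL, DCT and MITF lie below 0 in every window and the intervals of KIT lie above 0 except for the edge on days 1 to 4, which crosses 0.

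**Figure D4:**
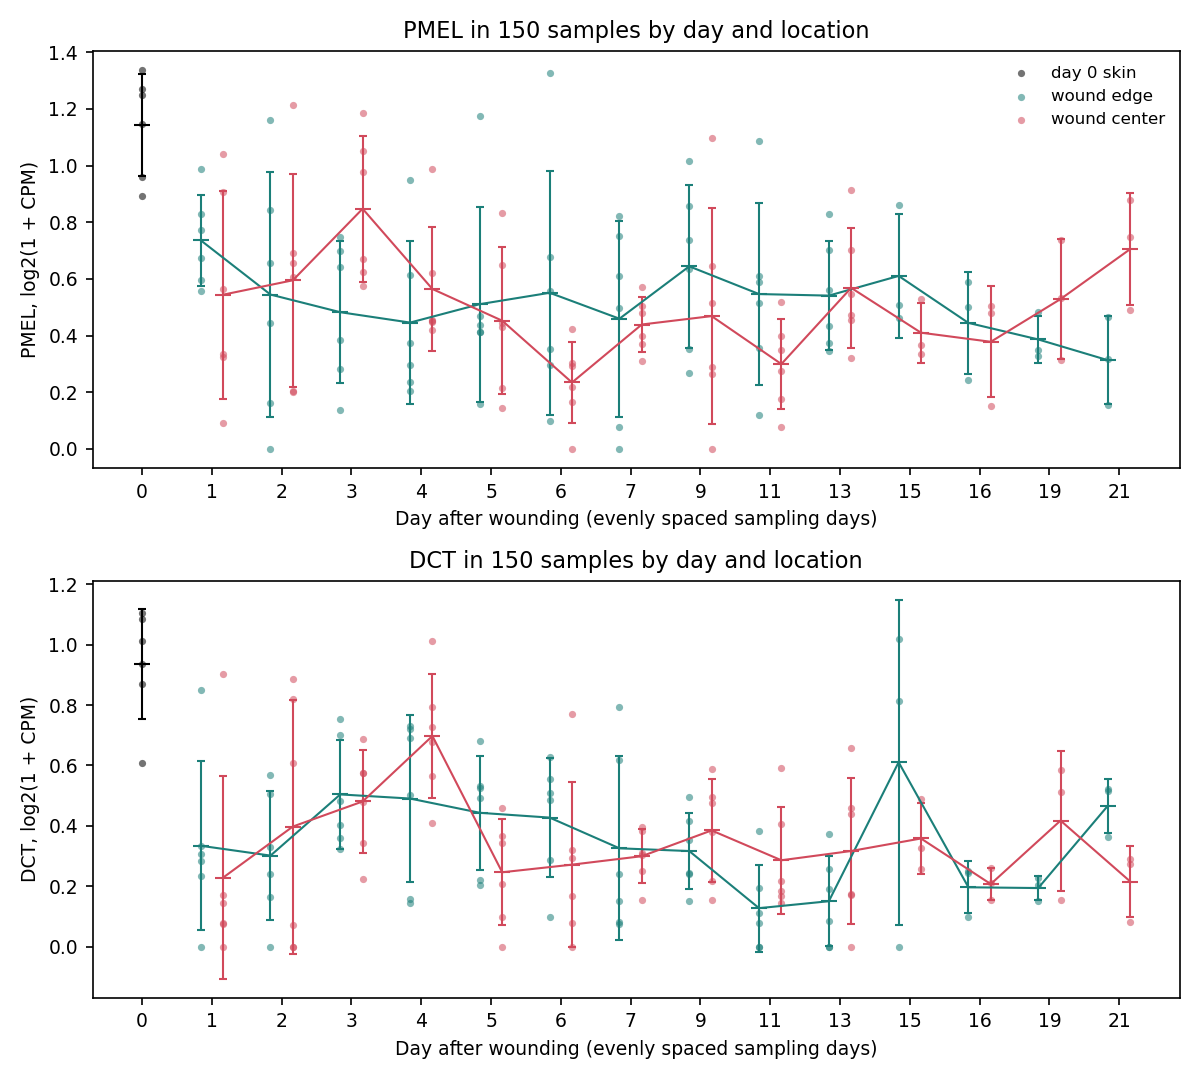
PMEL (top) and DCT (bottom) as log2(1 + CPM) in each of the 150 samples by sampling day, with means joined by lines and SD bars, for day 0 skin, edge and center. Day 0 has the highest mean of both genes, 1.14 and 0.94, and edge and center overlap on every day but day 21, when PMEL is higher in the center (0.405 to 0.838 against 0.115 to 0.382 CPM) and DCT at the edge (0.287 to 0.437 against 0.0578 to 0.223 CPM), with 3 samples each.

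The change within wounded tissue was tested without day 0, as days 15 to 21 against days 1 to 4. In the center 1 of 5 members was called (55.9% of all genes): MLANA was 14.7-fold higher late (log2 difference 3.88, SE 0.55, adjusted p = 1.6e-07 by edgeR). At the edge 2 of 5 were called (40.4%). KIT was 1.49-fold higher late (0.58, SE 0.12, adjusted p = 0.000102 by edgeR). MLANA at the edge was 2.81-fold higher late (1.49, SE 0.60, adjusted p = 0.042 by edgeR), and this call was lost without the 7 libraries set apart (adjusted p = 0.051), without animal 1326 (0.091), 1327 (0.083) or 1328 (0.23, log2 difference 1.06) and under 3 other alternatives. The change of the edge minus center difference from early to late was called for 2 of 5 (23.6%). It was 0.58 (SE 0.17, adjusted p = 0.0093 by edgeR) for KIT, whose locations drew together, and -2.39 (SE 0.80, adjusted p = 0.026 by edgeR) for MLANA, whose locations drew apart, and without animal 1323, 1324 or 1325 the call on MLANA was lost (adjusted p = 0.063, 0.11 and 0.10). Without the animal as a block neither was called (adjusted p = 0.19 for KIT and 0.093 for MLANA by edgeR). MITF, PMEL and DCT were called in none of these 3 tests. Scaled to library totals, which moved the median of all genes by -0.31 in the center and -0.24 at the edge, MITF was called lower late in both (-0.38 and -0.44) and KIT in the center (-0.32).

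The animals differed in one member. Within the trios, an edgeR quasi-likelihood F test on the 72 wounds with the day as a factor called KIT (adjusted p = 2.3e-08) and none of MITF, MLANA, PMEL and DCT (adjusted p = 0.39, 0.32, 0.93 and 0.23), where 28.5% of 18287 genes were called. The replicate in this test is the wound, so it speaks of these 6 animals only. Animal 1325 lay above the mean of its state in 22 of 24 wound samples, and animals 1323 and 1324 in 4 of 24 each. In the other trio animal 1326 did so in 3 of 24, and 1327 and 1328 in 16 and 17. Center means of KIT were 21.0, 19.3 and 31.9 CPM in animals 1323, 1324 and 1325 and 22.6, 31.7 and 28.9 CPM in 1326, 1327 and 1328. Edge means followed in part, at 12.2, 12.8 and 21.6 CPM and 13.9, 19.5 and 20.7 CPM. The day 0 samples, which that test did not use, had 8.72, 7.08 and 13.9 CPM in the first trio, where 1325 was again the highest, and 13.9, 15.1 and 11.98 CPM in the second, where 1326 was not the lowest. The short KIT row had 7 of its 10 counts in animal 1325.

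**Figure D5:**
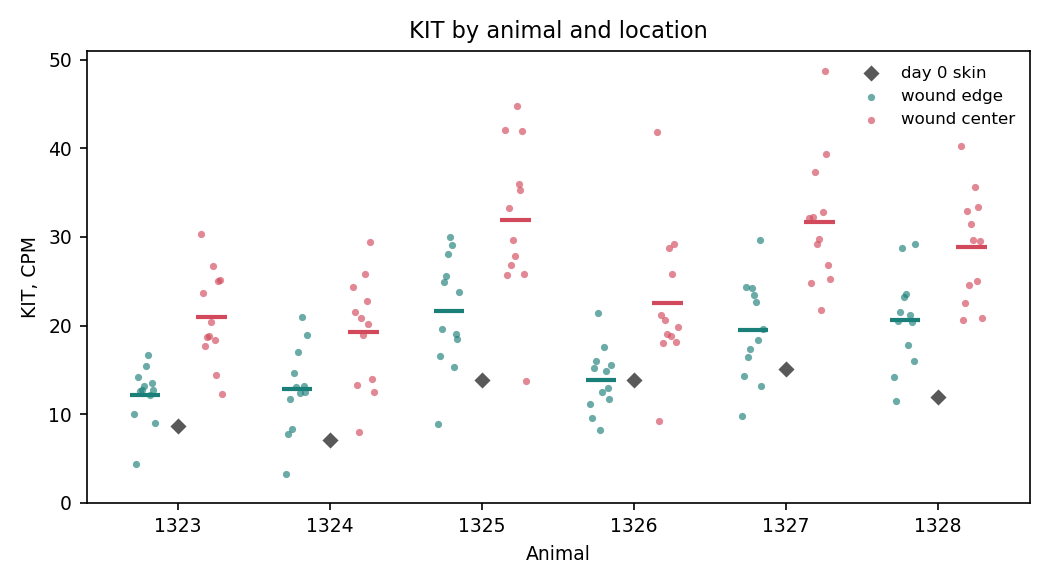
KIT in CPM (y axis) in each sample by animal (x axis) for day 0 skin (diamonds), wound edge and wound center (points, with bars at the means). The center bar is above the edge bar in 6 of 6 animals, and animal 1325 stands above 1323 and 1324.

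The members did not form one pattern across samples. Pearson's r on log2(1 + CPM) over the 150 samples was 0.48 between MLANA and KIT and 0.30 between PMEL and DCT, and the other 8 pairs lay between -0.20 and 0.25. Within the center alone r was 0.36 for MLANA and KIT and 0.09 for PMEL and DCT. The points share animals, wounds and days, and the low counts of PMEL and DCT limit any r, so these are descriptions without a test.

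The genes most like KIT were COL4A2, a chain of basement membrane collagen, LAMA4, a laminin chain of vessel walls, and TIE1, a receptor of endothelial cells, with r of 0.80, 0.80 and 0.79 over 150 samples among 15900 genes compared. Within the edge r was 0.77, 0.75 and 0.74, and within the center 0.68, 0.65 and 0.66. TIE1 had 29.5 CPM (SD 4.29) on day 0, 53.0 (SD 16.7) at the edge and 86.9 (SD 22.5) in the center. MLANA was most like EDNRA, an endothelin receptor, FCAR, a receptor for immunoglobulin A, and TP53INP1, a stress-induced nuclear protein, with r of 0.81, 0.81 and 0.80. FCAR had 0 counts in all day 0 samples, as MLANA had, and averaged 2.27 CPM (SD 3.00) in the center. MITF was most like REEP5, which shapes the endoplasmic reticulum, SCARB2, a lysosomal membrane protein, and SERINC3, a membrane protein, with r of 0.75, 0.68 and 0.67. Over all days edge and center differed in COL4A2 (-0.97, SE 0.07), LAMA4 (-0.91, SE 0.06), TIE1 (-0.68, SE 0.03), EDNRA (-0.92, SE 0.06), FCAR (-2.20, SE 0.28), TP53INP1 (-0.44, SE 0.04) and SCARB2 (-0.43, SE 0.06), all higher in the center, and REEP5 and SERINC3 were not called.

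Some lists of markers of other cell types moved with a member and others did not, and their part in the results was not tested. A list of blood vessel endothelium genes, added after the genes like KIT were seen, summed to 366 to 578 CPM on day 0 (median 492), 228 to 1862 at the edge (median 864) and 805 to 2615 in the center (median 1527). Its r with KIT was 0.77 over all samples, 0.73 within the edge and 0.59 within the center. The list holds TIE1 and ESAM, which are among the genes most like KIT (r of 0.79 and 0.78). Its r was thus in part fixed by how it was chosen and cannot be set against that of the mast cell list. For the mast cell list 10 rows were found, and no row carried the symbols of its granule proteases CPA3, TPSB2, TPSAB1, CMA1 and CTSG. The rows found summed to 49.1 to 80.1 CPM on day 0 (median 57.0) and 14.8 to 97.8 at the edge (median 52.1). In the center the mast cell list summed to 14.2 to 140 CPM (median 39.5). Its r with KIT was -0.24 over all samples, -0.04 within the edge and 0.04 within the center. Between edge and center 6 of its 10 rows were called, where 60.4% of all genes were, 5 of them higher at the edge and 1 higher in the center, with a median log2 difference of 0.25 against -0.03 for all genes. MS4A2, the beta chain of the high-affinity IgE receptor and a defining marker of mast cells, was not called (0.03, SE 0.05), and every row of the list had counts in each group.

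The macrophage list had a positive r with MLANA and KIT. All 10 of its rows were higher in the center than on day 0 in each window, with 65% to 74.8% of all genes called. All 10 were also higher in the center than at the edge over all days, where 60.4% of all genes were called. The list summed to 253 to 495 CPM on day 0 (median 395) and 239 to 2541 at the edge (median 975). In the center it summed to 685 to 3394 CPM (median 1807). Its r with MLANA was 0.46 over all samples, 0.15 within the edge and 0.32 within the center. With KIT r was 0.49, 0.29 and 0.10 in the same order, and with MITF it was 0.09, 0.40 and 0.36. CD68, CD163, CSF1R and MRC1, its defining markers, had counts in every sample. Schwann cells share the neural crest origin, and their list had an r of -0.60 with MLANA over all samples, -0.29 within the edge and -0.51 within the center. Of the 10 Schwann rows tested, 8 were lower in the center on days 11 to 13 than on day 0 and none was higher. In that comparison 70.1% of all genes were called. The Schwann list summed to 364 to 466 CPM on day 0 (median 404) and 114 to 355 at the edge (median 224). In the center it summed to 37.8 to 339 CPM (median 95.9).

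The hair follicle list, like PMEL, DCT and MITF, was highest on day 0. All 14 of its rows were lower in the center than on day 0 in each window, and at the edge 13 to 14 of 14 were. Of all genes, 65% to 74.8% were called in the center windows and 46.5% to 61.3% in those of the edge. The hair follicle list summed to 89.0 to 17398 CPM on day 0 (median 12376) and 4.84 to 7285 at the edge (median 44.4). In the center it summed to 2.74 to 2322 CPM (median 19.6). Its r over all samples was 0.41 with DCT, 0.34 with MITF and 0.29 with PMEL. Within the edge r was 0.45, 0.34 and 0.11, and within the center it was 0.05, 0.04 and 0.11, in the same order. One day 0 sample, of animal 1324, had 89.0 CPM of hair follicle genes against 4530 to 17398 in the other 5, and it also had the lowest day 0 values of MITF (32.5 CPM), KIT (7.08) and PMEL (0.856) but not of DCT (0.914). All 5 day 0 counts of TYRP1 came from this same sample (0.285 CPM). Basal keratinocyte genes summed to 12731 to 21319 CPM on day 0, 401 to 42649 at the edge and 229 to 28696 in the center, with medians of 16019, 20192 and 521. Suprabasal ones summed to 17466 to 54750, 13.8 to 55111 and 6.42 to 38340 CPM, with medians of 35538, 30135 and 111. PMEL and DCT were lower than on day 0 at the edge as well. There 1 of 7 basal rows and none of 4 suprabasal rows was called in each window, against 46.5% to 61.3% of all genes. In the center on days 1 to 4, 7 of 7 adipocyte rows and 9 of 9 skeletal muscle rows tested were higher than on day 0. Of all genes 73% were called in that comparison. Over all days the adipocyte list had medians of 674 CPM on day 0, 1250 at the edge and 1769 in the center. Skeletal muscle genes had medians of 19.8, 9.81 and 12.5 CPM, so the typical center sample was not higher in them. The adipocyte and skeletal muscle lists had an r between -0.52 and 0.55 with the members in edge or center, and single wound samples reached 19419 and 84467 CPM of them.

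Other genes of the melanosome did not follow PMEL and DCT as a group. The list has 21 rows, most of which other cells also use for lysosome-related organelles. Its r with MITF was 0.48 over all samples, 0.68 within the edge and 0.57 within the center. With PMEL r was 0.19, 0.18 and 0.21, and with DCT it was -0.00054, 0.21 and -0.18, in the same order. MITF also had an r of 0.39, 0.54 and 0.25 with the Schwann list. With the mast cell list it was 0.29, 0.49 and 0.10, and with the adipocyte list 0.34, 0.55 and 0.29. On days 11 to 13 in the center, 13 of 20 rows tested were higher than on day 0 and 4 were lower. Of all genes 70.1% were called, and the median log2 difference was 0.58 for the list against 0.00 for all genes. MLPH and RAB38, which serve melanosome transport and biogenesis, fell by 3.98 (SE 0.33) and 3.76 (SE 0.67) log2 units. OCA2, a melanosomal transporter with 656 counts in all, was higher by 2.06 (SE 0.70), and GPNMB, a glycoprotein related to PMEL that macrophages also carry, was higher by 1.99 (SE 0.27). On days 1 to 4 the center had 4 rows higher and 6 lower (73% of all genes called), with a median of 0.02 against 0.02. Edge minus center over all days gave 7 rows higher at the edge and 9 higher in the center of 21 tested. Of all genes 60.4% were called there, and the median of the list was -0.10 against -0.03. RAB38 (3.20, SE 0.25), TRPM1 (1.83, SE 0.39, on 94 counts) and MLPH (1.82, SE 0.15) were higher at the edge, and OCA2 (-0.69, SE 0.21) was higher in the center.

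Transcription factors and cofactors of the lineage were called about as often as genes in general in the center on days 11 to 13. On days 1 to 4 in the center every row tested but that of TFEB was called, where 73% of all genes were called. In the center on days 11 to 13, of 14 rows tested 6 were higher than on day 0 and 4 were lower, where 70.1% of all genes were called, with a median of 0.12 against 0.00. TFAP2B (-5.62, SE 0.72), SOX9 (-5.05, SE 0.55) and TFAP2A (-3.63, SE 0.57), which keratinocytes and hair follicles also use, were lower, and IRF4 (4.62, SE 0.48), which is also a lymphocyte and macrophage factor, was higher. SOX10, the neural crest factor that switches on MITF, averaged 7.72 CPM (SD 1.96) on day 0, 3.06 (SD 2.98) at the edge and 1.25 (SD 1.28) in the center. In the center on days 11 to 13 it fell by 3.41 log2 units (SE 0.44, adjusted p = 4.8e-09 by edgeR), when MLANA was at its highest, and PAX3, its partner in that step, was not called there (-0.05, SE 0.55). On days 1 to 4 in the center both were lower than on day 0, SOX10 by a log2 difference of -1.99 (SE 0.40) and PAX3 of -3.69 (SE 0.60, adjusted p = 6.16e-07 by edgeR). Edge minus center over all days gave 4 rows higher at the edge and 7 higher in the center of 15 tested. Of all genes 60.4% were called there, and the median of the list was -0.12 against -0.03. SOX10 and PAX3 are named outside the naming rule, after their values were seen.

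Of the signals that act on melanocytes, 11 rows were tested in the center on days 11 to 13. Against day 0, 7 of 11 were higher and 2 were lower, where 70.1% of all genes were called. The median was 0.59 against 0.00. CORIN, a protease of the dermal papilla that affects coat color, was higher by 4.30 (SE 0.49), MC1R, the melanocortin receptor, by 2.58 (SE 0.94, on 326 counts in all samples) and EDN3, an endothelin for which melanoblasts carry the receptor, by 2.51 (SE 0.35). On days 1 to 4 EDN3 was lower in the center than on day 0 (-1.95, SE 0.36, adjusted p = 6.29e-06 by edgeR), MC1R was not called (-1.34, SE 1.14) and CORIN was higher (3.09, SE 0.47). On days 11 to 13 ERBB3, a receptor for neuregulin, was lower in the center than on day 0 by 3.80 log2 units (SE 0.31). KITLG, the ligand of KIT, named after its values were seen, was higher in that window by 0.43 (SE 0.16, adjusted p = 0.015 by edgeR). Edge minus center over all days was called for all 11 rows, where 60.4% of all genes were called. The median was -0.44 against -0.03 for all genes, and 8 of the 11 rows were higher in the center. These were led by EDN3 (-2.32, SE 0.17), CORIN (-1.85, SE 0.07) and EDNRB (-1.25, SE 0.08), and ERBB3 (2.75, SE 0.18) was higher at the edge. KITLG differed by -0.38 (SE 0.05), higher in the center, as KIT was.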

How the data were processed

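Messenger RNA of 150 porcine skin and wound samples was sequenced after poly-A enrichment as paired reads. The sequencing provider removed adapter, poly-N and low-quality reads, aligned the rest and counted them per gene, and the authors deposited the raw counts. They also deposited FPKM values made from the same counts, which were used only for levels per length. Aligner, counter, genome build and strand setting are not given in the sources used here. Total counts ran from 13133379 to 24895572 a sample.

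Counts were summed for each animal, location and window (54 sums; 12 sums for the comparison over all days) and tested with the quasi-likelihood test of edgeR 4.0.16 (limma 3.58.1, R 4.3.3) with TMM scaling, filterByExpr (minimum count 10, minimum total 15), the animal as a term and Benjamini-Hochberg adjustment over all genes tested at 0.05. The animal numbers of the labels pair the samples. Intervals are 95% intervals from the SE, and floors use 3 counts and cover counting error only. Levels are CPM of the sample total, and means were also taken on log2(1 + CPM). The fits were tested on simulated data. DESeq2 1.42.0, library totals without TMM, no filter on low counts, no animal term, each library as a replicate, leaving out each animal or 7 libraries, summing the rows of KIT, a pseudocount of 0.5 and FPKM were the alternatives. Tables and figures used Python 3.11.15, numpy 2.4.6, pandas 2.3.3, scipy 1.17.1 and matplotlib 3.10.9.

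The members and gene lists were chosen with earlier results of these data known. Besides the members, the genes named are the 3 most correlated with each member of at least 1 CPM on average, up to 4 called genes of a list by size of change, and a list's defining markers. Genes outside this rule are said to be chosen after their values were seen.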

Additional observations from a re-analysis of the deposited data

Results flagged for a closer look

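In 7 of 145 groups of 6 values tested, 1 value stood apart from the others by Dixon's ratio, whose critical value is 0.625, and chance gives about 1 in 20, or 7.25. For PMEL these were animal 1324 at the edge on days 1 to 4 (0.666 CPM against 0.409 to 0.493, ratio 0.655), animal 1327 in the center on days 5 to 9 (0.113 CPM against 0.363 to 0.423, ratio 0.827), the center of wound G of animal 1326 on day 4 (0.984 CPM against 0.339 to 0.539, ratio 0.647) and the edge of wound B of animal 1323 on day 5 (1.26 CPM against 0.116 to 0.383, ratio 0.696). For DCT it was the center of wound L of animal 1323 on day 1 (0.868 CPM against 0 to 0.127, ratio 0.809). For MLANA these were the edge of wound A of animal 1326 on day 2 (0.171 CPM against 0 in the other 5, ratio 1.0, on 3 counts) and the edge of wound E of animal 1328 on day 9 (1.56 CPM against 0.222 to 0.510, ratio 0.714).

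The difference between edge and center changed from days 1 to 4 to days 15 to 21 for KIT (0.58 on the log2 scale, edgeR adjusted p = 0.0093) and for MLANA (-2.39, edgeR adjusted p = 0.026). The second KIT row, which entered no comparison, held 10 counts in 6 wound samples and none on day 0.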

How the results depend on the processing

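Of the recomputed log2 fold changes of members, 997 kept their direction and side of the threshold, 17 lost and 6 gained a call and 20 changed sign, none of the last being called. Without the replicate block, the number of members called between edge and center fell from 2 to 1 on days 5 to 9 (KIT -0.45, adjusted p = 0.10 by edgeR) and the number whose difference changed from early to late fell from 2 to 0 (KIT 0.60, adjusted p = 0.19, and MLANA -2.097, adjusted p = 0.093, by edgeR). Leaving out the block changed no other call on a member. With library totals in place of TMM the median of all genes moved by -0.31 (center) and -0.24 (edge) late against early, by -0.12 to -0.19 on days 11 to 21 against day 0 and by 0.13 in the center on days 1 to 4. The members called late against early in the center then rose from 1 to 3, with MITF at -0.38 and KIT at -0.32, and MITF was called at the edge (-0.44). The share of higher calls among all genes fell from 51.5% to 27.3% (center) and from 44.3% to 19.7% (edge) late against early, from 51.2% to 38.6% in the center on days 15 to 21, and at the edge from 52.4% to 37.3% on days 11 to 13 and from 55.0% to 34.9% on days 15 to 21. DESeq2 moved that share from 39.4% to 50.7% for the change from early to late. Members called at the edge late against early fell from 2 to 1 with no filter on low counts, without the 7 libraries and with each library as a replicate.

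Leaving out 1 animal at a time, or the 7 libraries, gave 1 to 2 members called between edge and center on days 15 to 21, 1 to 2 at the edge late against early and 1 to 2 for the change of the difference. Over all days it gave edge minus center from -0.0046 to 0.089 for MITF, -0.0019 to 0.28 for PMEL and -0.081 to 0.18 for DCT. By window it gave -0.23 to 0.12 for DCT on days 1 to 4, -0.16 to 0.027 for MITF on days 5 to 9 and -0.0021 to 0.58 for DCT on days 15 to 21. Late against early it gave -0.16 to 0.0040 for MITF and -0.071 to 0.074 for KIT in the center, -0.16 to 0.30 for DCT at the edge and -0.20 to 0.036 for PMEL in the change of the difference. DCT also changed sign over all days with library totals (-0.0057) and each library as a replicate (-0.00378), and at the edge late against early under both (-0.14 and -0.083), and MITF did so on days 5 to 9 without the 7 libraries (0.00050). The cause was not tested. All genes called fell to 2576 for the change of the difference without animal 1323, and to 3208 for the animals of a trio without animal 1327. At a few reads a sample, PMEL, DCT and early MLANA allow only large differences to be seen.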
